A study of Mus musculus with 12 samples.

Results

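The 10 genes of the matrix metalloproteinase system were described here in mouse macrophages that carried or lacked the nuclear receptor ERRα, with and without lipopolysaccharide (LPS). The members were the 7 metalloproteinase genes Mmp8, Mmp9, Mmp12, Mmp13, Mmp14, Mmp19 and Mmp25 and the 3 inhibitor genes Timp1, Timp2 and Timp3. They were taken as the array probes whose transcript accession belongs to 1 of these genes, which gave 10 of the 20887 genes named on the array. The cells were bone marrow-derived macrophages from male C57BL6 mice aged 6 to 8 weeks, cultured for 5 to 7 days with M-CSF, which drives marrow progenitors to become macrophages. The 4 groups were ERRα-/- cells given LPS, ERRα-/- cells given PBS, ERRα+/+ cells given LPS and ERRα+/+ cells given PBS, with 3 arrays each. LPS was used at 100 ng/mL, PBS was its solvent, and the sources used here do not give the time of exposure. The labels name no conditional allele, and they do not say whether replicates came from separate animals or cultures, so the p-values measure the spread between these samples, which may be technical.

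Matrix metalloproteinases are zinc-dependent enzymes that cut collagens, elastin, basement membrane proteins and many cell-surface and secreted signalling proteins. They are made as inactive precursors and are opened by other proteases, and the tissue inhibitors of metalloproteinases (TIMPs) block the active site. Macrophages use them to move through tissue and to remodel it during inflammation, and LPS, a bacterial outer membrane component sensed by TLR4, is a known inducer of several of them.

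Levels are log2 processed signal relative to the 75th percentile of the same array, so 0 is the 75th percentile, and levels are compared within a probe only. Between 45.4% and 56.7% of an array's probes were well above background, and replicates correlated with r between 0.964 and 0.996 across genes. Replicate 1 of every group lay on slide 1 and replicates 2 and 3 on slide 2, and the LPS response differed between the slides for 34.4% of all genes. Esrra, which encodes ERRα and checks the genotype labels, read 3.83 to 4.40 in ERRα-/- LPS arrays, 0.145 to 2.48 in ERRα-/- PBS arrays, 5.87 to 6.36 in ERRα+/+ LPS arrays and 4.39 to 4.68 in ERRα+/+ PBS arrays. It separated the genotypes within each treatment only, since ERRα-/- LPS arrays reached the ERRα+/+ PBS level. Replicate 1 of ERRα-/- PBS read 2.48, against 0.245 and 0.145 in replicates 2 and 3. Of 14 measured macrophage markers, 13, led by Csf1r and Adgre1, were well above background on all 3 arrays of every group, and Cd163 was not well above background on any. All 10 members passed the filter on dim probes, and 9 of them were well above background on all 12 arrays. The exception was Mmp25, which was well above background on all 3 LPS arrays of each genotype and on 1 of 3 PBS arrays of each.

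**Figure D1:**
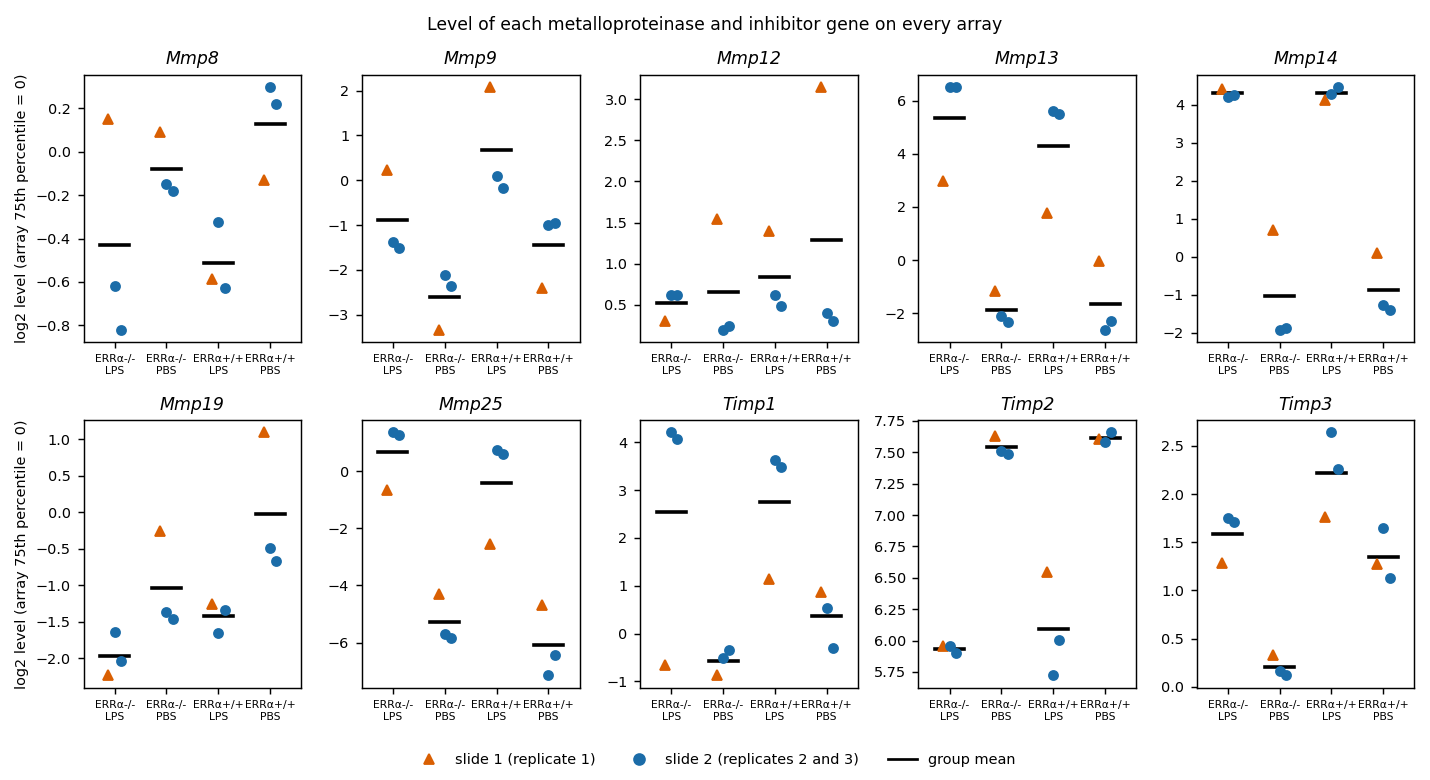
Log2 level of each gene (y axis, relative to the array's 75th percentile) on each array of the 4 groups (x axis). Triangles are slide 1 (replicate 1), circles are slide 2 (replicates 2 and 3) and bars are group means of 3 arrays. Mmp13, Mmp14 and Mmp25 lie higher on every LPS array than on every PBS array, Timp2 lies lower, and Timp3 lies lower in ERRα-/- than in ERRα+/+ arrays under either treatment.

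LPS raised 5 members and lowered 1 in ERRα-/- macrophages, and raised 5 and lowered 2 in ERRα+/+ macrophages (limma, adjusted p under 0.05 over 13116 genes). In ERRα-/- cells Mmp13, Mmp14, Mmp25, Timp1 and Timp3 rose and Timp2 fell. In ERRα+/+ cells Mmp9, Mmp13, Mmp14, Mmp25 and Timp3 rose, and Mmp19 and Timp2 fell. The same test called 50.4% of all genes in ERRα-/- cells (25.1% rose, 25.3% fell) and 45.9% in ERRα+/+ cells (22.2% rose, 23.7% fell), so the shares of 6 of 10 and 7 of 10 members are not far above the background. LPS and PBS arrays did not overlap for 7 members in ERRα-/- cells and 9 in ERRα+/+ cells, beside 59.6% and 53.9% of all genes. The members' median log2 difference was 1.55 in ERRα-/- cells and 1.50 in ERRα+/+ cells, beside 0.05 and 0.02 for all genes tested. The test called 5 members in both genotypes, as it did 40.6% of all genes. Timp1 was called in ERRα-/- cells only, and Mmp9 and Mmp19 in ERRα+/+ cells only. With slide as a block, Timp1 was also called in ERRα+/+ cells (adjusted p = 0.0487) and Mmp19 in ERRα-/- cells (adjusted p = 0.0490). The difference between these responses was tested by the interaction, which called 0 of 10 members (limma, 0 of 10 at an unadjusted p under 0.05, beside 292 of all genes). In bulk RNA, fewer cells of a type and less RNA per cell cannot be told apart.

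**Figure D2:**
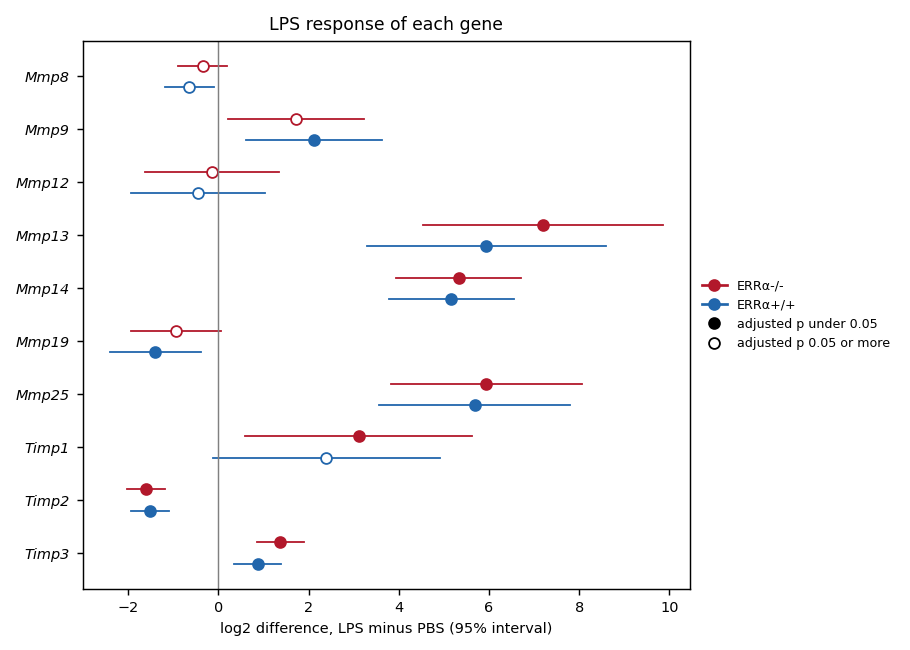
Log2 difference of LPS minus PBS (x axis) for each gene (y axis) in ERRα-/- (red) and ERRα+/+ (blue) macrophages, with 95% intervals from limma on 3 arrays per group; filled points passed an adjusted p of 0.05. Mmp13, Mmp14 and Mmp25 lie between 5.17 and 7.20 in both genotypes, and Timp2 lies at -1.60 (ERRα-/-) and -1.52 (ERRα+/+).

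Of the collagenases, Mmp13, the main interstitial collagenase of rodents, had the largest mean LPS response among the 10 genes in both genotypes. It read 2.98, 6.51 and 6.52 in ERRα-/- LPS arrays, against -1.18, -2.11 and -2.31 in ERRα-/- PBS arrays. In ERRα+/+ cells it read 1.79, 5.60 and 5.48 with LPS, against -0.04, -2.61 and -2.30 with PBS. The LPS and PBS arrays did not overlap in either genotype, and replicate 1 was the lowest LPS array in both. The difference was 7.20 ± 1.20 (log2, SE, n = 3 arrays per group, limma adjusted p = 0.000778), or 147-fold, in ERRα-/- cells and 5.94 ± 1.20 (adjusted p = 0.00256), or 61.2-fold, in ERRα+/+ cells. The response was smaller on slide 1 (4.16 in ERRα-/-, 1.83 in ERRα+/+) than on slide 2 (8.72 in ERRα-/-, 7.99 in ERRα+/+).

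The promoter of Mmp13 is shown because it is the member with the largest response and its window holds 2 of the motifs searched. The 300 bases run from 250 before to 50 after the RefSeq transcription start in GRCm38.p6, chr9:7272264-7272563 on the plus strand, 5′ to 3′, and capitals mark an AP-1 motif (TGANTCA, -35 to -29) and a TATA box (TATAAA, -16 to -11).
Mmp13 promoter: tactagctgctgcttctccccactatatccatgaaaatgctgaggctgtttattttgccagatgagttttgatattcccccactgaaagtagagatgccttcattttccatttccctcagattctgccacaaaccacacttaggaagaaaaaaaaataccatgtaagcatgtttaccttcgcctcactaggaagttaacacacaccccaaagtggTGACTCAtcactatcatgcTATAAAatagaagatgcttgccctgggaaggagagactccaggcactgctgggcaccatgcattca
Both strands were searched, and 7.81% of the 32851 promoter windows of this length in the table hold the AP-1 motif and 13.6% the TATA box. These matches describe the letters of the window only.

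Mmp8, the collagenase stored in neutrophil granules, passed the test in neither genotype. It read 0.15, -0.62 and -0.82 in ERRα-/- LPS arrays, against 0.09, -0.15 and -0.18 in ERRα-/- PBS arrays, and -0.59, -0.32 and -0.63 in ERRα+/+ LPS arrays, against -0.13, 0.30 and 0.22 in ERRα+/+ PBS arrays. The groups overlapped in ERRα-/- cells, where the difference was -0.35 ± 0.24 (limma adjusted p = 0.250). They did not overlap in ERRα+/+ cells, where the difference of -0.64 ± 0.24 had an adjusted p of 0.0505, or 0.0450 with the replicate number as a block. Single arrays changed this: without replicate 1 of ERRα-/- LPS the adjusted p was 0.0153 in ERRα-/- cells (-0.64) and 0.00989 in ERRα+/+ cells, and without replicate 3 of ERRα-/- LPS or replicate 1 of ERRα+/+ PBS it was 0.0407 and 0.0387 in ERRα+/+ cells.

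Both membrane-bound members rose. Mmp14, the membrane-type enzyme that cuts collagen at the cell surface and activates pro-MMP2, read 4.41, 4.21 and 4.27 in ERRα-/- LPS arrays, against 0.71, -1.92 and -1.87 in ERRα-/- PBS arrays. In ERRα+/+ cells it read 4.13, 4.29 and 4.48 with LPS, against 0.09, -1.29 and -1.42 with PBS. The 6 LPS arrays lay within a narrow band, whereas on the PBS side replicate 1 stood above replicates 2 and 3 in both genotypes. LPS raised Mmp14 by 5.33 ± 0.63 (limma adjusted p = 0.000107), or 40.1-fold, in ERRα-/- cells and by 5.17 ± 0.63 (adjusted p = 0.000129), or 35.9-fold, in ERRα+/+ cells. Its response was 3.70 in ERRα-/- and 4.04 in ERRα+/+ cells on slide 1, and 6.14 in ERRα-/- and 5.73 in ERRα+/+ cells on slide 2.

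Mmp25, a glycolipid-anchored metalloproteinase also known as leukolysin and first described in leukocytes, read -0.65, 1.36 and 1.27 in ERRα-/- LPS arrays, against -4.31, -5.70 and -5.85 in ERRα-/- PBS arrays. In ERRα+/+ cells it read -2.55, 0.74 and 0.61 with LPS, against -4.67, -7.15 and -6.42 with PBS. The LPS arrays lay above all PBS arrays in both genotypes, with replicate 1 the lowest of its LPS group. LPS raised it by 5.94 ± 0.96 (limma adjusted p = 0.000638) in ERRα-/- cells and by 5.68 ± 0.96 (adjusted p = 0.000913) in ERRα+/+ cells. Since the gene was measured above background on 1 of 3 PBS arrays per genotype, the size of this fold rests on dim PBS signals. The response was 3.65 in ERRα-/- and 2.12 in ERRα+/+ cells on slide 1, and 7.09 in ERRα-/- and 7.46 in ERRα+/+ cells on slide 2.

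The promoters of Mmp14 and Mmp25 are shown beside that of Mmp13 because the 3 genes had the largest responses. Their windows have the same length and build: chr14:54431348-54431647 on the plus strand for Mmp14 and chr17:23645220-23645519 on the minus strand for Mmp25. Capitals mark matches to the NF-kB motif, found at -88 to -79 (read on both strands) and -51 to -42 of Mmp25.
Mmp14 promoter: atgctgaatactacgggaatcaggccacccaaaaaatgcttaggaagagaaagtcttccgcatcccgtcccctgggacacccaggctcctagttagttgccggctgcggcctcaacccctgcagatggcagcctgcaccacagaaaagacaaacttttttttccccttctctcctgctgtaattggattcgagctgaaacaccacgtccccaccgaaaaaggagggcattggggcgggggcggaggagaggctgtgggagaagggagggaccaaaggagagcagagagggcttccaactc
Mmp25 promoter: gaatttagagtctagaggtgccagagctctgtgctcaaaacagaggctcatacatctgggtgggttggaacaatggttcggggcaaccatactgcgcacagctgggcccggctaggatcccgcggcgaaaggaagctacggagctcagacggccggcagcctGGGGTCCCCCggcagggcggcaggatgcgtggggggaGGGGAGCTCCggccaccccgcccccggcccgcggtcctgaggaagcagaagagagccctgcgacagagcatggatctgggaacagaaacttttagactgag
The NF-kB motif matched 8.46% of all windows. No AP-1, NF-kB, TATA or ERR response element (TNAAGGTCA) match was found in the window of Mmp14. The 3 windows of the most induced members thus hold no motif in common among those searched.

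Mmp9, gelatinase B, which cuts denatured collagen and basement membrane collagen, was higher with LPS on every same-numbered pair of arrays, 6 of 6. It read 0.23, -1.37 and -1.52 in ERRα-/- LPS arrays, against -3.33, -2.12 and -2.35 in ERRα-/- PBS arrays, and 2.09, 0.09 and -0.18 in ERRα+/+ LPS arrays, against -2.40, -0.997 and -0.96 in ERRα+/+ PBS arrays. The groups did not overlap in either genotype. The difference was 1.72 ± 0.68 (limma adjusted p = 0.0571) in ERRα-/- cells and 2.12 ± 0.68 (adjusted p = 0.0267) in ERRα+/+ cells. Its size differed by slide: the response was 3.57 in ERRα-/- and 4.49 in ERRα+/+ cells on slide 1, and 0.79 in ERRα-/- and 0.93 in ERRα+/+ cells on slide 2. The ERRα+/+ call was lost without replicate 1 of ERRα+/+ LPS (1.41, adjusted p = 0.0802) and without replicate 1 of ERRα+/+ PBS (1.64, adjusted p = 0.0941), whereas without that LPS array the ERRα-/- difference passed (adjusted p = 0.0241).

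Mmp12, macrophage elastase, passed the test in neither genotype with its brightest probe. It read 0.30, 0.62 and 0.62 in ERRα-/- LPS arrays, against 1.55, 0.20 and 0.24 in ERRα-/- PBS arrays, and 1.40, 0.61 and 0.49 in ERRα+/+ LPS arrays, against 3.15, 0.40 and 0.30 in ERRα+/+ PBS arrays. Replicate 1 was high on the PBS side of both genotypes, and the groups overlapped. The LPS difference was -0.14 ± 0.67 (limma adjusted p = 0.876) in ERRα-/- and -0.45 ± 0.67 (adjusted p = 0.611) in ERRα+/+ cells. It was negative on slide 1 (-1.24 in ERRα-/-, -1.76 in ERRα+/+) and positive on slide 2 (0.41 in ERRα-/-, 0.20 in ERRα+/+). The other, dimmer Mmp12 probe stood at -1.23 ± 0.52 (adjusted p = 0.0697) in ERRα-/- and -1.45 ± 0.52 (adjusted p = 0.0406) in ERRα+/+ cells in a fit of 17125 probes. It disagreed in size, and on slide 2 also in direction. There it read -3.525 and -4.09 in ERRα-/- LPS arrays against -2.98 and -3.25 with PBS, and was also lower with LPS in ERRα+/+ cells. It was well above background on 1 of 3 ERRα-/- LPS and 2 of 3 ERRα+/+ LPS arrays, so these sizes rest on dim LPS signals.

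Mmp19, which cuts basement membrane and cartilage proteins, was lower with LPS on 6 of 6 same-numbered pairs. It read -2.23, -1.64 and -2.04 in ERRα-/- LPS arrays, against -0.26, -1.37 and -1.46 in ERRα-/- PBS arrays, and -1.25, -1.65 and -1.34 in ERRα+/+ LPS arrays, against 1.096, -0.49 and -0.67 in ERRα+/+ PBS arrays. The groups did not overlap, and replicate 1 was the highest PBS array in both genotypes. The difference was -0.94 ± 0.45 (limma adjusted p = 0.108) in ERRα-/- cells and -1.40 ± 0.45 (adjusted p = 0.0279) in ERRα+/+ cells. It was -1.97 in ERRα-/- and -2.35 in ERRα+/+ cells on slide 1, and -0.42 in ERRα-/- and -0.92 in ERRα+/+ cells on slide 2. The ERRα+/+ call was lost without replicate 1 of ERRα+/+ PBS (-0.84, adjusted p = 0.0755), and without replicate 2 or 3 of ERRα+/+ LPS (adjusted p = 0.0881 and 0.0649), or with no filter on dim probes (adjusted p = 0.0527), and without that PBS array the ERRα-/- difference passed (adjusted p = 0.0288).

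The 3 inhibitors moved in different directions. Timp1, the secreted inhibitor induced in many inflamed tissues, read -0.66, 4.20 and 4.06 in ERRα-/- LPS arrays, against -0.87, -0.51 and -0.35 in ERRα-/- PBS arrays. In ERRα+/+ cells it read 1.15, 3.63 and 3.49 with LPS, against 0.86, 0.54 and -0.31 with PBS. Replicates 2 and 3 of both LPS groups stood far above their PBS arrays, whereas replicate 1 lay close to its PBS partner in both genotypes: the response was 0.21 (ERRα-/-) and 0.29 (ERRα+/+) on slide 1, and 4.56 (ERRα-/-) and 3.44 (ERRα+/+) on slide 2. Over all arrays the difference was 3.11 ± 1.13 (limma adjusted p = 0.0411) in ERRα-/- cells and 2.39 ± 1.13 (adjusted p = 0.108) in ERRα+/+ cells. The ERRα-/- call was lost with no filter on dim probes (adjusted p = 0.0720) and when any of 9 of the 12 arrays was left out, with the largest fall without replicate 2 (2.28, adjusted p = 0.157) or replicate 3 (2.35, adjusted p = 0.150) of ERRα-/- LPS. The ERRα+/+ difference passed without replicate 1 of ERRα-/- LPS (adjusted p = 0.00746) or of ERRα+/+ LPS (3.20, adjusted p = 0.0478).

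Timp2, which inhibits most metalloproteinases and also carries pro-MMP2 to Mmp14 for activation, was the member that fell in both genotypes. It read 5.95, 5.96 and 5.90 in ERRα-/- LPS arrays, against 7.63, 7.51 and 7.48 in ERRα-/- PBS arrays, and 6.55, 5.72 and 6.00 in ERRα+/+ LPS arrays, against 7.60, 7.58 and 7.66 in ERRα+/+ PBS arrays. Both PBS groups were tight (SD 0.0789 in ERRα-/- and 0.04 in ERRα+/+), and no LPS array reached them. Timp2 fell by 1.60 ± 0.19 on the log2 scale (limma adjusted p = 0.000105), or 3.04-fold, in ERRα-/- cells and by 1.52 ± 0.19 (adjusted p = 0.000144), or 2.87-fold, in ERRα+/+ cells. Both slides showed it, with -1.68 in ERRα-/- and -1.06 in ERRα+/+ cells on slide 1, and -1.57 in ERRα-/- and -1.76 in ERRα+/+ cells on slide 2. Its other, dimmer probe went the same way by less, -0.43 ± 0.28 (adjusted p = 0.224) in ERRα-/- and -0.63 ± 0.28 (adjusted p = 0.0896) in ERRα+/+ cells.

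Timp3, the inhibitor that binds to the extracellular matrix and also blocks ADAM17, the enzyme that sheds TNF, rose with LPS in both genotypes. It read 1.29, 1.75 and 1.71 in ERRα-/- LPS arrays, against 0.33, 0.16 and 0.12 in ERRα-/- PBS arrays. In ERRα+/+ cells it read 1.76, 2.64 and 2.26 with LPS, against 1.27, 1.64 and 1.13 with PBS. Neither genotype's LPS and PBS arrays overlapped. The LPS response was 0.96 in ERRα-/- and 0.49 in ERRα+/+ cells on slide 1, and 1.59 in ERRα-/- and 1.07 in ERRα+/+ cells on slide 2. The difference was 1.38 ± 0.24 (limma adjusted p = 0.00092), or 2.60-fold, in ERRα-/- cells and 0.87 ± 0.24 (adjusted p = 0.0117), or 1.83-fold, in ERRα+/+ cells, and the second call was lost without replicate 2 of ERRα+/+ LPS (0.66, adjusted p = 0.0528) and with normexp background correction (0.67, adjusted p = 0.0509).

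Between the genotypes, 1 member differed over both treatments, Timp3. With the genotype difference averaged over LPS and PBS, 1 of 10 members was called, beside 1.36% of all genes. Timp3 was lower in ERRα-/- macrophages by 0.89 on the log2 scale (-0.89 ± 0.17, 95% interval -1.26 to -0.52, limma adjusted p = 0.0293), or 1.86-fold. It was lower on 6 of 6 same-numbered pairs, by between 0.47 and 1.48 log2 units, and the genotypes did not overlap under LPS or under PBS. Under LPS the gap was very narrow, with the highest ERRα-/- array at 1.751 and the lowest ERRα+/+ array at 1.762. The call was lost when any of 9 of the 12 arrays was left out, where the adjusted p reached at most 0.0982 and the difference stayed between -0.94 and -0.79. It was also lost with normexp (adjusted p = 0.0537), median scaling (0.0658) and no filter on dim probes (0.0777), with the replicate block it had an adjusted p of 0.0110, and on slide 2 alone of 0.00825. The promoter of Timp3 is shown because it is the member with a genotype call, at chr10:86300162-86300461 on the plus strand of GRCm38.p6. It is printed without capitals, since none of the 4 motifs, the ERR response element included, was found in this window.
Timp3 promoter: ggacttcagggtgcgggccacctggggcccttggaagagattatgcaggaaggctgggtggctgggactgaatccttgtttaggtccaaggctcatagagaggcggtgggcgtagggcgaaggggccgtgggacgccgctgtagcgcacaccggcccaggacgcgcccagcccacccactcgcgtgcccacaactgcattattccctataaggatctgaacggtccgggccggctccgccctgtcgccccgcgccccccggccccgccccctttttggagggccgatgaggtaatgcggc
The ERR response element matched 1.28% of all windows, and no window of the 8 members in the RefSeq table held it. Mmp9 and Mmp19 were the members with no window in the table. A missing match says only that these letters are not in this stretch.

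Under PBS alone 0 of 10 members were called between the genotypes (limma), beside 0.427% of all genes. At an unadjusted p under 0.05 there were 2 of 10 members, beside 862 of 13116 genes. Timp3 was nearest, at -1.14 ± 0.24 with an adjusted p of 0.0953, or 0.0332 with the replicate number as a block and 0.0412 without replicate 1 of ERRα+/+ LPS, and Mmp19 followed at -1.01 ± 0.45 (adjusted p = 0.753). Under LPS alone 0 of 10 members were called (limma), beside 0.13% of all genes, with Timp3 at -0.64 ± 0.24 (adjusted p = 0.579) and Mmp9 at -1.55 ± 0.68 (adjusted p = 0.774). At an unadjusted p under 0.05 there were again 2 of 10 members, beside 818 of 13116 genes. The arrays of both genotypes did not overlap for 2 members under PBS (Timp1 and Timp3) and for 1 under LPS (Timp3), beside 14.2% and 12% of all genes.

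Mmp9 was lower in ERRα-/- than in ERRα+/+ macrophages on 6 of 6 same-numbered pairs, by between 0.93 and 1.86 log2 units, but did not pass the test. Its averaged difference was -1.35 ± 0.48 (95% interval -2.42 to -0.28, limma adjusted p = 0.326), with the spread between slides inside the error. On slide 2 alone, with 2 arrays per group, the averaged difference was -1.33 (adjusted p = 0.00156), where 19.2% of all genes were called. With slide and slide-by-treatment terms, a model chosen after seeing the data, its adjusted p was 0.000298, where 18.4% of all genes were called. It was not called with slide as a block (adjusted p = 0.177) or with the replicate number as a block (0.234).

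With the slides apart, more members passed. On slide 2 alone, 5 members were called under PBS, 2 under LPS and 7 averaged, beside 9%, 15.9% and 19.2% of all genes. With the slide terms, 3 were called under PBS, 4 under LPS and 4 averaged, beside 7.21%, 13.8% and 18.4% of all genes. Mmp9 and Timp3 were lower in ERRα-/- cells under each treatment in the second model (Mmp9 adjusted p = 0.00117 under LPS and 0.00343 under PBS, Timp3 0.0310 and 0.00532). Mmp19 was lower under PBS (adjusted p = 0.0159), and Mmp13 (1.05, adjusted p = 0.0294) and Mmp25 (1.06, adjusted p = 0.0434) were higher under LPS. On slide 2 alone Mmp13 was also called under LPS (adjusted p = 0.00951) and Mmp25 was not (0.117). Neither was called under LPS with slide as a block (adjusted p = 0.723 for Mmp13 and 0.659 for Mmp25) or with the replicate number as a block (0.763 and 0.705), and without replicate 1 of ERRα+/+ LPS both took the other sign (-0.20 for Mmp13, -0.02 for Mmp25).

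Mmp8, Mmp9 and Mmp25 are also products of neutrophils, and the neutrophil markers are given here beside them. The 13 on the array were S100a9, Csf3r, S100a8, Camp, Ltf, Elane, Ngp, Mpo, Ctsg, Retnlg, Prtn3, Fcnb and Cxcr2. On all 3 arrays of a group, 10 of them were well above background in ERRα-/- LPS, 11 in ERRα-/- PBS, 11 in ERRα+/+ LPS and 13 in ERRα+/+ PBS cells, and none was absent from every array of a group. Their summed signal, in units of the array's 75th percentile, ranged over 598 to 665 in ERRα-/- LPS, 383 to 491 in ERRα-/- PBS, 420 to 780 in ERRα+/+ LPS and 449 to 596 in ERRα+/+ PBS arrays. Their median averaged genotype difference was -0.64, beside -0.01 for all genes, with 0 of 13 called (limma), beside 1.36% of all genes. With LPS, Camp rose in ERRα-/- cells (1.14, adjusted p = 0.0448), and Mpo (-2.61, adjusted p = 0.00363) and Retnlg (-1.72, adjusted p = 0.0315) fell in ERRα+/+ cells. Of all genes, LPS called 50.4% in ERRα-/- and 45.9% in ERRα+/+ cells. The part of the neutrophil markers in the values of Mmp8, Mmp9 and Mmp25 was not tested.

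The other members differed between genotypes by less than their errors allowed the test to call. Mmp19 was lower in ERRα-/- cells on 5 of 6 pairs (averaged -0.78 ± 0.32, limma adjusted p = 0.454), and Mmp25 was higher on 6 of 6 (0.93 ± 0.68, adjusted p = 0.809). Mmp25 took the other sign under PBS with another background correction (-0.14, against 0.80 in the test as described). For Mmp14 the averaged difference was -0.08, with a 95% interval of -1.06 to 0.90, and for Timp2 it was -0.11, with an interval of -0.41 to 0.18. For Mmp13 the interval ran from -1.46 to 2.29 and for Timp1 from -2.36 to 1.19, so differences of over 2-fold either way lie within these limits. Mmp8 (interval -0.44 to 0.32) and Mmp12 (-1.53 to 0.58) completed the list.

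**Figure D3:**
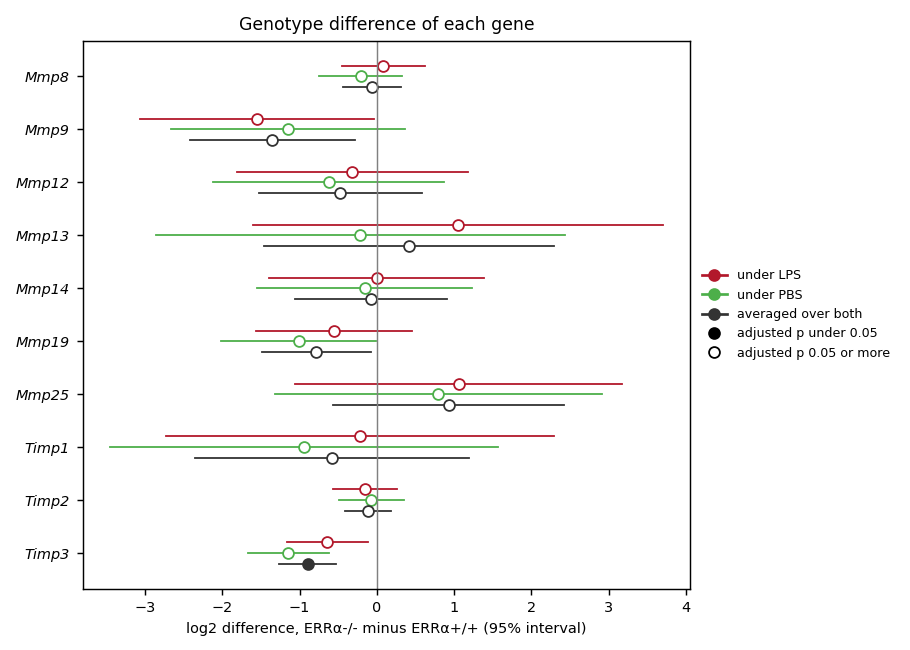
Log2 difference of ERRα-/- minus ERRα+/+ (x axis) for each gene (y axis) under LPS (red), under PBS (green) and averaged (black), with 95% intervals from limma on 3 arrays per group; filled points passed an adjusted p of 0.05. Timp3 averaged over both treatments is the filled point, at -0.89.

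The LPS response itself was compared between genotypes by the interaction, and no interval was narrow for the strongly induced genes. The response of ERRα-/- minus that of ERRα+/+ cells was 1.26 for Mmp13 (95% interval -2.49 to 5.01), 0.16 for Mmp14 (-1.81 to 2.12) and 0.26 for Mmp25 (-2.73 to 3.25). It was -0.40 for Mmp9 (-2.54 to 1.74) and 0.45 for Mmp19 (-0.97 to 1.88). Among the inhibitors it was 0.72 for Timp1 (-2.83 to 4.27), -0.08 for Timp2 (-0.67 to 0.51) and 0.50 for Timp3 (-0.23 to 1.24). For Mmp8 it was 0.29 (-0.47 to 1.05) and for Mmp12 0.31 (-1.80 to 2.42). All 10 intervals include 0.

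The LPS responses differed between the slides. In the model with slide and slide-by-treatment terms, 7 of 10 members had an LPS response that differed between the slides, where 34.4% of all genes did. Mmp13 responded more on slide 2 by 5.37 ± 0.37 (limma adjusted p = 7.27e-05), Mmp25 by 4.38 ± 0.43 (adjusted p = 0.000227), Timp1 by 3.75 ± 0.71 (adjusted p = 0.00477) and Mmp14 by 2.07 ± 0.32 (adjusted p = 0.00197). Mmp9 went the other way, with a response smaller on slide 2 by 3.17 (-3.17 ± 0.20, adjusted p = 5.79e-05). The negative responses of Mmp19 and Mmp12 on slide 1 were closer to 0 or positive on slide 2 (slide 2 minus slide 1 of 1.49 ± 0.27, adjusted p = 0.00412, and 1.80 ± 0.47, adjusted p = 0.0195). Timp2 (-0.29 ± 0.21, adjusted p = 0.306), Timp3 (0.60 ± 0.23, adjusted p = 0.0775) and Mmp8 (-0.45 ± 0.32, adjusted p = 0.318) did not pass. Since slide 1 holds replicate 1 and slide 2 the others, slide and replicate number cannot be told apart here. The labels also name another array format for replicate 1 than for replicates 2 and 3, although the 12 files carry the same design number and 62976 spots each, so any difference in format cannot be told apart from slide either.

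**Figure D4:**
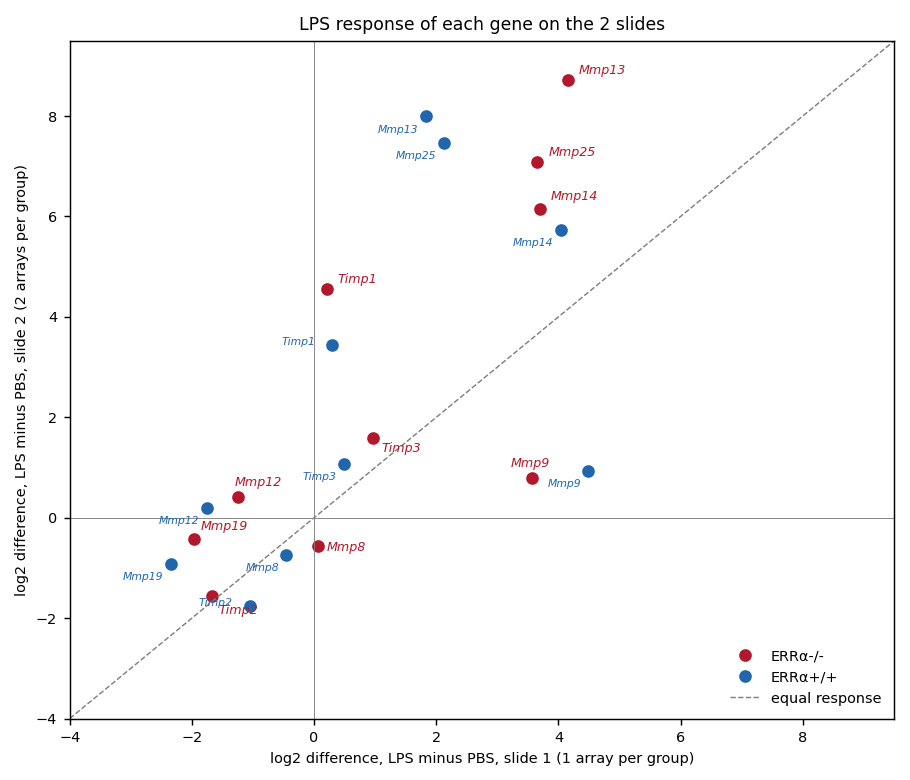
LPS minus PBS log2 difference of each gene on slide 1 (x axis, 1 array per group) against slide 2 (y axis, mean of 2 arrays per group), in ERRα-/- (red) and ERRα+/+ (blue) macrophages, with a dashed line of equal response. Mmp13, Mmp25, Mmp14 and Timp1 lie above the line, Mmp9 lies below it, and Timp2 and Mmp8 lie near it.

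Across the 12 arrays, the members with the most alike levels were Mmp13 and Mmp25 (Pearson r = 0.99), and those with the most opposed were Mmp25 and Timp2 (r = -0.96). These r values describe arrays that fall into LPS and PBS clusters. The genes most like each member on the whole array were Ppp2r2d for Mmp13 (r = 0.994), Zdhhc18 for Mmp14 (r = 0.996), Lgals9 for Mmp25 (r = 0.994), Rad54b for Timp2 (r = 0.996), Btbd10 for Timp1 (r = 0.98), Serpina3b for Timp3 (r = 0.97), Gbe1 for Mmp9 (r = 0.96), Tusc3 for Mmp12 (r = 0.95), Dhrs9 for Mmp19 (r = 0.95) and Per3 for Mmp8 (r = 0.94).

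Other genes of the protease network were taken from 5 lists. Their LPS counts stand beside 50.4% of all genes called in ERRα-/- and 45.9% in ERRα+/+ cells (limma). The list of further metalloproteinase genes with Timp4 held 17 genes, of which 16 were on the array and 5 were tested. Of these 5, 2 rose and 1 fell with LPS in each genotype. Mmp3, stromelysin 1, rose by 2.40 ± 0.65 (limma adjusted p = 0.0105) in ERRα-/- and 2.67 ± 0.65 (adjusted p = 0.00677) in ERRα+/+ cells. It was well above background on all 3 LPS arrays but on only 1 of 3 PBS arrays of each genotype, so these sizes rest on dim PBS signals. Mmp2, gelatinase A, was at least 2.41-fold higher with LPS in ERRα-/- cells, where its PBS arrays were not well above background, and stood 1.76 ± 0.51 higher (adjusted p = 0.0164) in ERRα+/+ cells, where 2 of 3 LPS and 1 of 3 PBS arrays were well above background. Mmp11, stromelysin 3, was at least 2.31-fold lower with LPS in ERRα-/- cells and fell by 1.00 ± 0.27 on the log2 scale (adjusted p = 0.0124) in ERRα+/+ cells, with 2 of 3 LPS arrays well above background. Here "at least" sets the brighter group's mean against the lowest signal among probes well above background on the dim arrays. Among the 13 tested ADAM and ADAMTS genes, 4 rose and 3 fell in ERRα-/- and 5 rose and 3 fell in ERRα+/+ cells. Adamts4, an aggrecanase that Timp3 inhibits, was at least 69.0-fold higher with LPS in ERRα-/- and at least 133-fold higher in ERRα+/+ cells (limma adjusted p = 1.50e-05 and 1.62e-05). Rhbdf2, the iRhom that brings ADAM17 to the cell surface, rose by 2.98 in ERRα-/- and 2.94 in ERRα+/+ cells, and Adamts10 fell by 2.19 and 2.14.

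Among the 18 tested activators, receptors and other brakes of metalloproteinases, 8 rose and 0 fell in ERRα-/- cells, and 5 rose and 1 fell in ERRα+/+ cells. Over all genes, LPS raised 25.1% and lowered 25.3% in ERRα-/-, and raised 22.2% and lowered 23.7% in ERRα+/+ cells. Serpinb2, an inhibitor of plasminogen activators, rose by 7.98 ± 0.67 in ERRα-/- and 6.56 ± 0.67 in ERRα+/+ cells (limma adjusted p = 1.55e-05 and 4.58e-05). Sdc4, a cell-surface heparan sulfate proteoglycan, rose by 4.97 ± 0.39 in ERRα-/- and 5.02 ± 0.39 in ERRα+/+ cells. Lrp1, the receptor that clears Mmp13 and Mmp9 from the surroundings of the cell, fell by 1.53 ± 0.57 on the log2 scale (adjusted p = 0.0478) in ERRα+/+ cells, and its difference in ERRα-/- cells was close to that, at -1.47 ± 0.57 (adjusted p = 0.0509). Of 17 tested cathepsins and cystatins, 4 rose and 1 fell in ERRα-/- cells and 3 rose and 3 fell in ERRα+/+ cells. Cst7, cystatin F, was the largest, at 5.21 ± 0.43 in ERRα-/- and 5.11 ± 0.43 in ERRα+/+ cells, with Ctsc, which Cst7 inhibits, at 1.94 ± 0.49 and 2.07 ± 0.49.

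Of the matrix substrates of these enzymes, 7 of 19 tested were lower in ERRα-/- cells averaged over treatments (Fn1, Col4a1, Col4a2, Col5a1, Nid1, Hspg2 and Sparc) and 0 were higher, beside 1.36% of all genes. This list was chosen with earlier results of these data known, so the count is a description and not an independent test. With LPS, 2 of 19 tested rose and 1 fell in ERRα-/- cells, and 1 rose and 1 fell in ERRα+/+ cells. Of all genes, LPS called 50.4% in ERRα-/- and 45.9% in ERRα+/+ cells. Vcan, a large proteoglycan, rose by 2.68 ± 0.55 in ERRα-/- and 1.92 ± 0.55 in ERRα+/+ cells. The median averaged genotype difference of the list was -0.89, beside -0.01 for all genes. Under PBS alone 4 of 19 were lower in ERRα-/- cells, beside 0.427% of all genes called. Under LPS alone 0 of 19 were called, beside 0.13% of all genes. Fn1, fibronectin, averaged -1.56 ± 0.23 (limma adjusted p = 0.00869) and Col4a1, a basement membrane collagen, -1.51 ± 0.16 (adjusted p = 0.00191). In each of the other lists 1 gene at most was lower in ERRα-/- cells: Mmp11 (-0.95 ± 0.19, adjusted p = 0.0432), Adamts2 (-0.95 ± 0.19, adjusted p = 0.0376) and the integrin Itgb3 (-1.02 ± 0.17, adjusted p = 0.0159). Mmp11 was not well above background on any ERRα-/- LPS array, so its averaged value is not a measured size, and under LPS it was at least 1.51-fold lower in ERRα-/- cells (limma adjusted p = 0.0742). Of the called substrates, Col5a1 was well above background on 1 of 3 ERRα-/- LPS arrays and 2 of 3 ERRα-/- PBS arrays, and Nid1 on 2 of 3 arrays of each ERRα-/- group.

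Of 12 tested stromal and endothelial markers, 0 were higher and 2 lower in ERRα-/- cells averaged over treatments (Acta2 and Postn), beside 1.36% of all genes called. Their median was -0.83, beside -0.01 for all genes. The brightest, Kdr, stood at 0.02 and Vwf at -0.80, and neither passed (adjusted p = 0.995 and 0.121). Col1a1, Col1a2 and Col3a1 belong to both this list and the substrates, so the lists are not separate. Of 14 on the array, 11 were well above background on all 3 arrays in ERRα-/- LPS, 10 in ERRα-/- PBS, 10 in ERRα+/+ LPS and 12 in ERRα+/+ PBS cells. Pdgfra and Postn were above background on no array of either ERRα-/- group, nor was Lum in ERRα-/- PBS. The summed signal of the list, led by Kdr and Vwf, ranged over 33.4 to 43.1 in ERRα-/- LPS, 25.3 to 29.3 in ERRα-/- PBS, 45.2 to 56.4 in ERRα+/+ LPS and 32.9 to 43.8 in ERRα+/+ PBS arrays, in units of the array's 75th percentile. Their part in the lower Timp3 and substrate values of ERRα-/- cells was not tested.

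**Figure D5:**
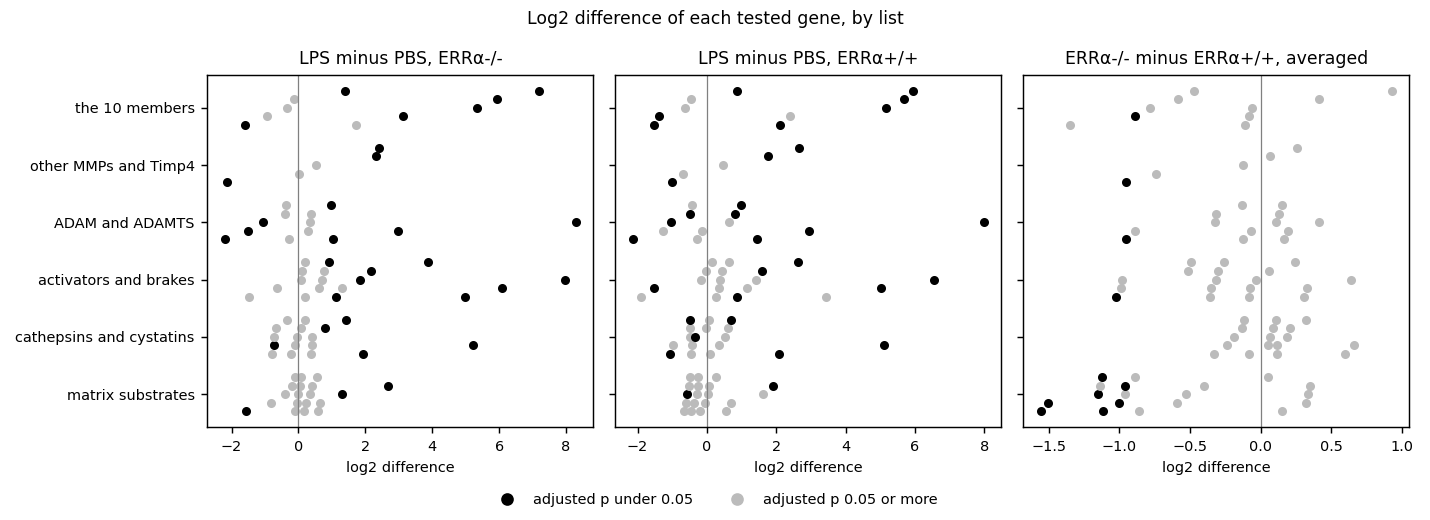
Log2 difference (x axis) of each tested gene of the 10 members and of 5 lists (y axis) for LPS minus PBS in ERRα-/- cells (left), LPS minus PBS in ERRα+/+ cells (middle) and ERRα-/- minus ERRα+/+ averaged over treatments (right, with a narrower scale). Black points passed an adjusted p of 0.05, and in the right panel 7 of the 19 matrix substrates are black, all below 0.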

How the data were processed

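Macrophage RNA was measured on 12 one-colour arrays, 3 per group, as the labels group them. The deposited scanner files hold the processed signal intensity, background-subtracted within each array per the file headers, beside the raw median signal and background intensity of each spot and flags for well above background, saturated and non-uniform, used as they were deposited by the authors. Per the file headers they came from Agilent Feature Extraction 11.5.1.1, whereas the submitters' processing notes name 9.3.2.1. The deposited series table of intensity values matched that signal on every array. The 75th percentile of the processed signal ranged from 289 to 610, no spot was saturated, and spots of the same probe had a median coefficient of variation of 3.79% to 12.9%. The number of arrays limits the precision.

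The log2 signal minus the array's 75th percentile over non-control probes was analysed. Spots of a probe were averaged, without non-uniform spots. Accessions were named through a RefSeq gene table. A probe was tested if each of the 3 arrays of some group had it well above background, and a gene was its brightest tested probe, which gave 13116 genes. limma 3.58.1 (R 4.3.3, with the data.table package, version 1.17.8) fitted 1 mean per group and 6 contrasts, with Benjamini-Hochberg adjustment over all genes and a threshold of 0.05. The fit was tested on simulated data with independent noise. That simulation had no slide or replicate structure, so it does not cover the slide differences of these arrays. Same-numbered samples deviated together in all 6 pairs of groups (r from 0.143 to 0.783). Replicate 1 alone lay on slide 1, so a difference between slides would give such r values too, and they cannot show pairing. The same-numbered pairs therefore follow the labels only, and the main fit has no pairing term. Alternatives were normexp (offset 50), quantile and median scaling, other filters, all probes of a gene, slide and replicate blocks, array weights, slide 2 alone, slide-by-treatment terms (chosen after seeing the data) and each array left out. Promoters came from RefSeq (GRCm38.p6). The named genes were Esrra, the 10 members, up to 2 called genes per direction and comparison of each of 5 lists, the genes most like each member, the neutrophil markers and the brightest markers of the other lists. Col4a2, Col5a1, Nid1, Hspg2, Sparc, Col1a1, Col1a2, Col3a1, Acta2, Postn, Pdgfra, Lum and Cd163 are named beside counts and were chosen after their values were seen. Members and lists were chosen with earlier results of these data known. Of the other markers, mast cell genes Cma1, Fcer1a, Mcpt4 and Ms4a2 were above background in no group. Of the 4 mast cell genes tested, LPS raised 2 and lowered 1 in ERRα-/- cells, and raised 1 and lowered 0 in ERRα+/+ cells. The 2 brightest were Hdc, which rose in both genotypes, and Tpsb2. Tpsb2 fell in ERRα-/- cells (-0.64, limma adjusted p = 0.0453) and differed by -0.63 (adjusted p = 0.0502) in ERRα+/+ cells. Of dendritic cell genes LPS raised 3 of 6 in ERRα-/- and 2 of 6 in ERRα+/+ cells. The 2 brightest were Siglech, called in ERRα+/+ cells only, and Ccr7, called in ERRα-/- cells only. Of lymphocyte genes LPS lowered 2 of 6 in each genotype, and the 2 brightest, Cd4 and Nkg7, were not called in either. Of osteoclast genes LPS raised 2 and lowered 2 of 8 in each genotype. The 2 brightest of these were Acp5, which rose in both, and Atp6v0d2, which fell in both. Over all genes, LPS raised 25.1% and lowered 25.3% in ERRα-/-, and raised 22.2% and lowered 23.7% in ERRα+/+ cells.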

Additional observations from a re-analysis of the deposited data

How the results depend on the processing

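With LPS, Mmp13, Mmp14 and Timp2 kept their direction and their call under every alternative run in both genotypes, as did Mmp25 wherever it was tested (it left the test when all 12 arrays had to be well above background). By its brightest probe, Mmp12 in ERRα-/- cells turned to a rise of 0.41 (limma adjusted p = 0.00389) on slide 2 alone, where its dimmer probe read lower with LPS. The count of 0 members called between genotypes under PBS became 1 with the slide block, 1 with the replicate block, 5 on slide 2 alone, 3 with array weights and 3 with slide-by-treatment terms, and ranged from 0 to 1 with each array left out. Under LPS the 0 became 2 on slide 2 alone, 2 with array weights and 4 with slide-by-treatment terms, and stayed 0 with each array left out. The averaged count of 1 became 0 with normexp, 0 with median scaling, 0 with no filter, 7 on slide 2 alone, 5 with array weights and 4 with slide-by-treatment terms, and ranged from 0 to 1 with each array left out. The cause was not tested. The replicate block changed the call of no other member than Timp3 under PBS and Mmp8 in ERRα+/+ cells, and the slide block changed these and Timp1 in ERRα+/+ and Mmp19 in ERRα-/- cells with LPS. The interaction called 0 members under every alternative. Counts over all genes moved more: averaged between genotypes they ran from 81 to 3704 (179 as described), under PBS from 3 to 1543 (56 as described), under LPS from 3 to 4017 (17 as described), and the interaction reached 1228 with array weights (0 as described), while LPS called 5150 to 10771 genes in ERRα-/- (6612 as described) and 4534 to 9632 in ERRα+/+ cells (6019 as described). Quantile scaling moved the median LPS difference of all genes to -0.15 in ERRα-/- (0.05 as described) and -0.14 in ERRα+/+ cells (0.02). Of the genes called under PBS, 16.1% were higher in ERRα-/-, or 37.5% with median scaling, 30.6% with normexp, 31.3% with the slide block, 48.7% on slide 2 alone, 47.4% with array weights, 43.7% with slide-by-treatment terms and 9.38% to 44.4% with each array left out. Over single members and alternatives, 62 values gained a call in the same direction (beside Mmp12 above, with the other sign), 30 lost one and 64 changed sign with no call on either side. Dim PBS signals limit the fold of Mmp25.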
